A study of Mus musculus with 12 samples.

Results

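The Polycomb repressive complex genes described here are Ezh2, Ezh1, Eed, Suz12, Jarid2, Mtf2, Cbx2, Cbx7 and Rnf2, followed in mouse D3 embryonic stem cells. A gene was included when a probe set, the group of short probes that reads one transcript on the array, carried exactly its symbol in the platform annotation. All 9 genes were found, with 32 probe sets, among 18193 genes with 1 symbol and 45037 probe sets. Each gene is given by its brightest probe set, and the others serve as a check. The 9 brightest probe sets all passed the filter on low values, which kept 27022 probe sets for testing.

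D3 is an established mouse embryonic stem cell line, so every culture stands for a single line. All cultures were kept for 7 days in embryonic stem cell medium containing serum. The 4 conditions were LIF-free plus lithium, LIF-free, LIF plus lithium, and LIF, with 3 Affymetrix arrays each. LIF, the cytokine whose STAT3 signal sustains self-renewal of these cells, was given at 1000 units per ml. Lithium, an inhibitor of the kinase GSK3 used to mimic a Wnt signal, is given in the labels as 50 nM, whereas millimolar amounts are usual. The arrays are labelled as biological replicates 1 to 3 without a statement that they came from separate cultures, so p-values measure the spread between these arrays only. The series compares cells without LIF with cells given LIF, and cells with lithium with cells lacking it.

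Polycomb proteins keep developmental genes silent and work as 2 complexes. Polycomb repressive complex 2 (PRC2) methylates histone H3 through Ezh2 or its relative Ezh1, held together by Eed and Suz12, and accessory subunits such as Jarid2 and Mtf2 help to bring it to CpG-rich promoters. Polycomb repressive complex 1 (PRC1) ubiquitinates histone H2A through Rnf2 (also called Ring1b), and in its canonical form a chromobox protein such as Cbx7 or Cbx2 binds the methylated histone. In mouse embryonic stem cells Cbx7 is known as the main chromobox protein, and Cbx2 as one that becomes more prominent during differentiation.

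Signals are MAS5 values on a linear scale on which each array has a mean of 100 once its lowest and highest 2% of values are trimmed. Median signal over the 12 arrays ran from 10.5 to 19.3. The Gapdh 3′ to 5′ signal ratio, a measure of RNA integrity and labelling, was 0.739 to 0.802 on the 6 LIF-free arrays and 0.798 to 0.860 on the 6 LIF arrays. Its part in the results was not tested. Replicate 3 of the LIF condition had the lowest signal of the 3 LIF arrays for Eed, Suz12, Jarid2, Mtf2 and Rnf2 and the highest for Ezh2, Cbx7 and Cbx2. Whether this array differs from the others beyond these genes was not tested.

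Averaged over both lithium states, 6 of the 9 genes fell without LIF, all of them PRC2 genes, and 1 rose, the PRC1 gene Cbx2. Eed and Jarid2 had the largest falls, at 0.67 and 0.65 on the log2 scale, and both stayed called under every alternative run. Cbx7 and Rnf2 were not called. Of all 27022 probe sets tested, 24.7% were called in either direction, 10.8% were lower and 13.9% were higher, so 6 falls in 9 genes stand beside 10.8% and 1 rise beside 13.9%. Among the 18015 probe sets above the 60th percentile, where the brighter genes lie, 13.9% were lower. The median log2 change was -0.37 over the 9 genes and 0.02 over all probe sets. In RNA from whole cultures, fewer cells of a type and less RNA per cell cannot be told apart.

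**Figure D1:**
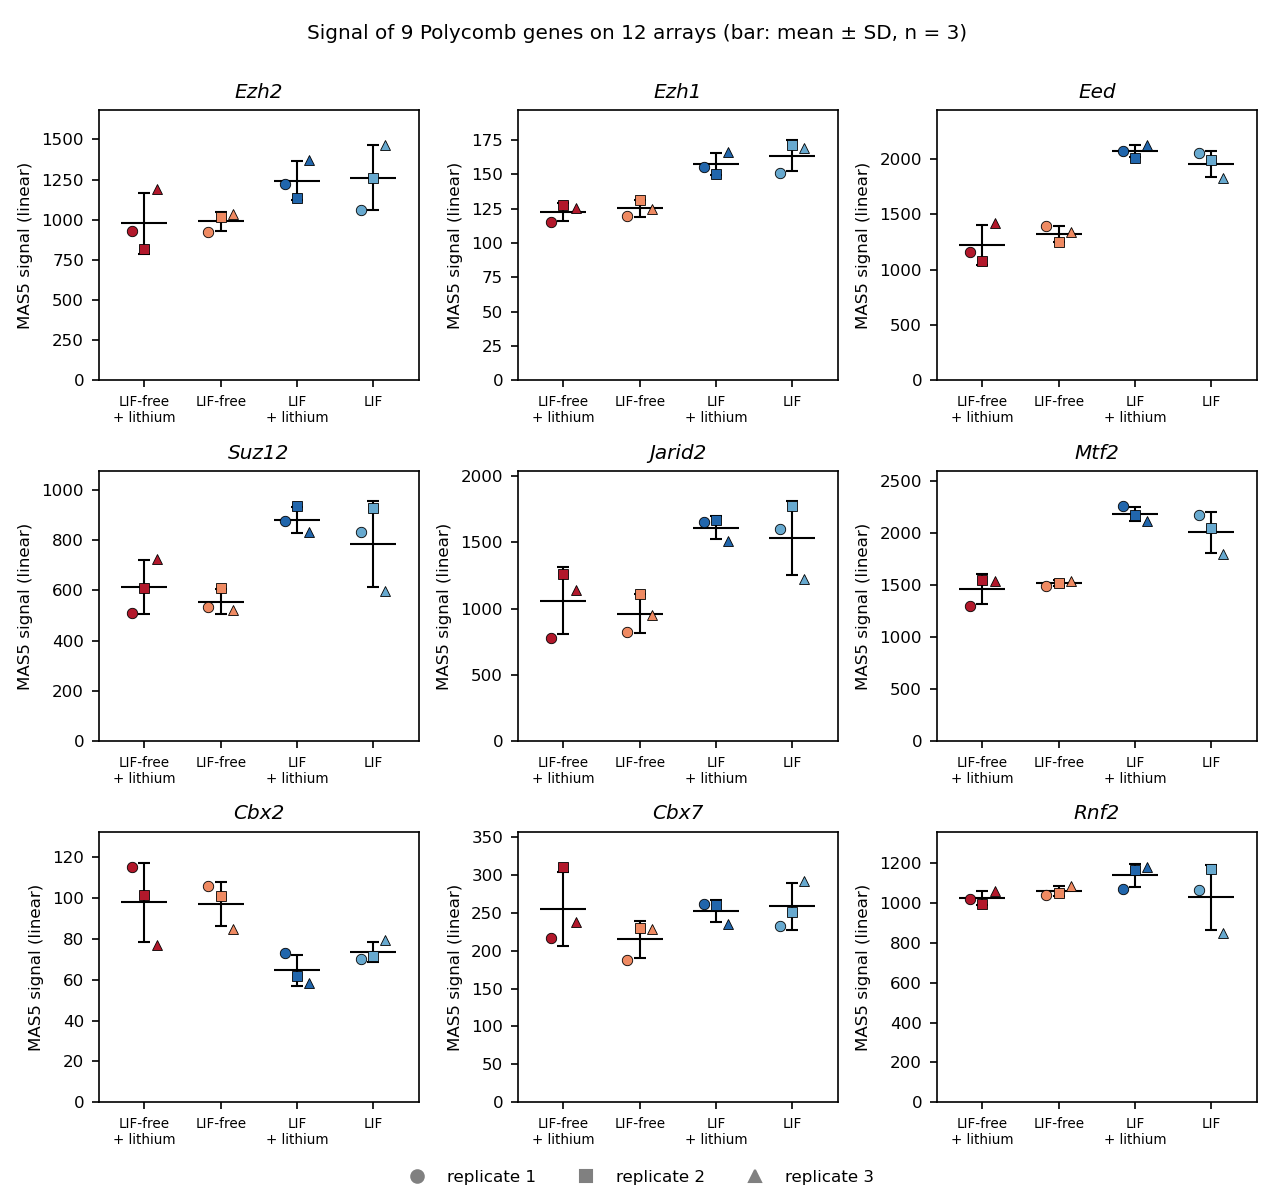
MAS5 signal (linear axis starting at 0) of the 9 genes on each of the 12 arrays, by condition. Points are arrays, with a shape for each replicate, and bars are mean ± SD (n = 3). Every LIF-free array lies below every LIF array for Ezh1, Eed and Mtf2, while Rnf2 and Cbx7 overlap.

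Ezh2, the main histone methyltransferase of PRC2, lies on chromosome 6 (47530274 to 47595270, GRCm38.p6). Its signal was 927, 816 and 1188 on the LIF-free plus lithium arrays, 923, 1014 and 1032 on the LIF-free arrays, 1219.8, 1134 and 1373 on the LIF plus lithium arrays, and 1060.1, 1258 and 1463 on the LIF arrays. The highest LIF-free value, replicate 3 with lithium, exceeded the lowest values of both LIF conditions, so the groups overlapped. Ezh2 fell by 0.35 on the log2 scale (SE 0.11, adjusted p = 0.0354). This call was the weakest of the 7: it was kept in only 3 of the 12 fits that left out 1 array (without LIF replicate 1, LIF plus lithium replicate 2 or LIF-free plus lithium replicate 3), and in the other 9 the adjusted p was 0.052 to 0.095. It also did not pass with no filter (adjusted p = 0.0569) or with no intensity trend (adjusted p = 0.0824).

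Ezh1, the second methyltransferase of the complex, lies on chromosome 11 (101191115 to 101226463). Its signal was 115, 127 and 125 on the LIF-free plus lithium arrays, 119, 131 and 125 on the LIF-free arrays, 155, 150.3 and 166 on the LIF plus lithium arrays, and 151, 171 and 169 on the LIF arrays. All 6 LIF-free arrays lay below all 6 LIF arrays. The fall was 0.37 on the log2 scale (SE 0.096, adjusted p = 0.0129). A complete separation of 6 arrays from 6 in the lower direction held for 3 of these 9 genes (Ezh1, Eed and Mtf2), against 5.91% of all probe sets, and in the higher direction for 0 of 9, against 8.22%.

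Eed and Suz12, the core subunits followed here beside the enzymes, both fell. Rbbp4 and Rbbp7, PRC2 genes described further below, were not called lower. Eed, which reads the methyl mark and stimulates the enzyme, lies on chromosome 7 (89954654 to 89980976). Its signal was 1155, 1077 and 1422 on the LIF-free plus lithium arrays, 1390.1, 1244 and 1336 on the LIF-free arrays, 2073, 2010.0 and 2122 on the LIF plus lithium arrays, and 2055, 1986 and 1824 on the LIF arrays. The lowest LIF array was well above the highest LIF-free array. The mean was 1271 ± 136 over the LIF-free arrays and 2012 ± 104 over the LIF arrays (SD, n = 6 each), and the fall was 0.67 on the log2 scale (SE 0.085, adjusted p = 0.000149).

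Suz12, the scaffold that keeps the PRC2 core together, lies on chromosome 11 (79993106 to 80034123). Its signal was 511, 609 and 723 on the LIF-free plus lithium arrays, 536, 610.3 and 520.3 on the LIF-free arrays, 875, 934 and 832 on the LIF plus lithium arrays, and 830.5, 928 and 596 on the LIF arrays. Only LIF replicate 3, at 596, fell within the LIF-free range, and the other 5 arrays given LIF exceeded all 6 without it. Suz12 fell by 0.50 on the log2 scale (SE 0.12, adjusted p = 0.00852).

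Jarid2 and Mtf2, the accessory subunits followed here, both fell. Among other PRC2 genes described further below, Epop fell, and Aebp2, Phf1 and Phf19 were not called. Jarid2, which marks the PRC2.2 form of the complex and helps it onto chromatin, lies on chromosome 13 (44730774 to 44921643). Its signal was 775, 1264 and 1144 on the LIF-free plus lithium arrays, 821, 1111 and 954 on the LIF-free arrays, 1656, 1664 and 1509 on the LIF plus lithium arrays, and 1599.6, 1771 and 1223 on the LIF arrays. LIF replicate 3 was again lowest, and it lay below the highest LIF-free value. Jarid2 fell by 0.65 on the log2 scale (SE 0.13, adjusted p = 0.00356).

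Mtf2, a Polycomb-like protein of the PRC2.1 form, lies on chromosome 5 (108065660 to 108109219). Its signal was 1302, 1551 and 1539 on the LIF-free plus lithium arrays, 1492, 1525 and 1544 on the LIF-free arrays, 2258, 2178 and 2119 on the LIF plus lithium arrays, and 2177, 2046 and 1796 on the LIF arrays. All LIF-free arrays were at 1551 or lower and all LIF arrays at 1796 or higher. The fall was 0.49 on the log2 scale (SE 0.080, adjusted p = 0.00078).

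Among the PRC1 genes, Cbx2 was the one that rose. It lies on chromosome 11 (119023019 to 119031275) and encodes a chromobox protein that compacts chromatin. Its signal was 115, 102 and 77.1 on the LIF-free plus lithium arrays, 106, 101 and 84.9 on the LIF-free arrays, 73.1, 62.0 and 58.4 on the LIF plus lithium arrays, and 69.9, 71.5 and 79.4 on the LIF arrays. LIF-free plus lithium replicate 3 was just under LIF replicate 3, and no other pair of arrays crossed. The rise was 0.49 on the log2 scale (SE 0.14, adjusted p = 0.0184). Without LIF-free plus lithium replicate 1 the adjusted p was 0.0517.

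Cbx7, on chromosome 15 (79915804 to 79971143), did not pass. Its signal was 216, 309.9 and 238 on the LIF-free plus lithium arrays, 187, 229 and 228 on the LIF-free arrays, 261, 261 and 235 on the LIF plus lithium arrays, and 232, 250.3 and 292 on the LIF arrays. Its highest value and its lowest were both LIF-free. The log2 change was -0.13 (95% interval -0.38 to 0.11, adjusted p = 0.454).

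Rnf2, the ubiquitin ligase at the centre of PRC1, lies on chromosome 1 (151469398 to 151500991) and varied little. Its signal was 1019, 995 and 1061 on the LIF-free plus lithium arrays, 1039, 1047 and 1086 on the LIF-free arrays, 1070.3, 1164 and 1178 on the LIF plus lithium arrays, and 1064, 1171 and 849 on the LIF arrays. The log2 change was -0.05 (95% interval -0.24 to 0.14, adjusted p = 0.754), an interval that still allows a modest fall or rise.

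**Figure D2:**
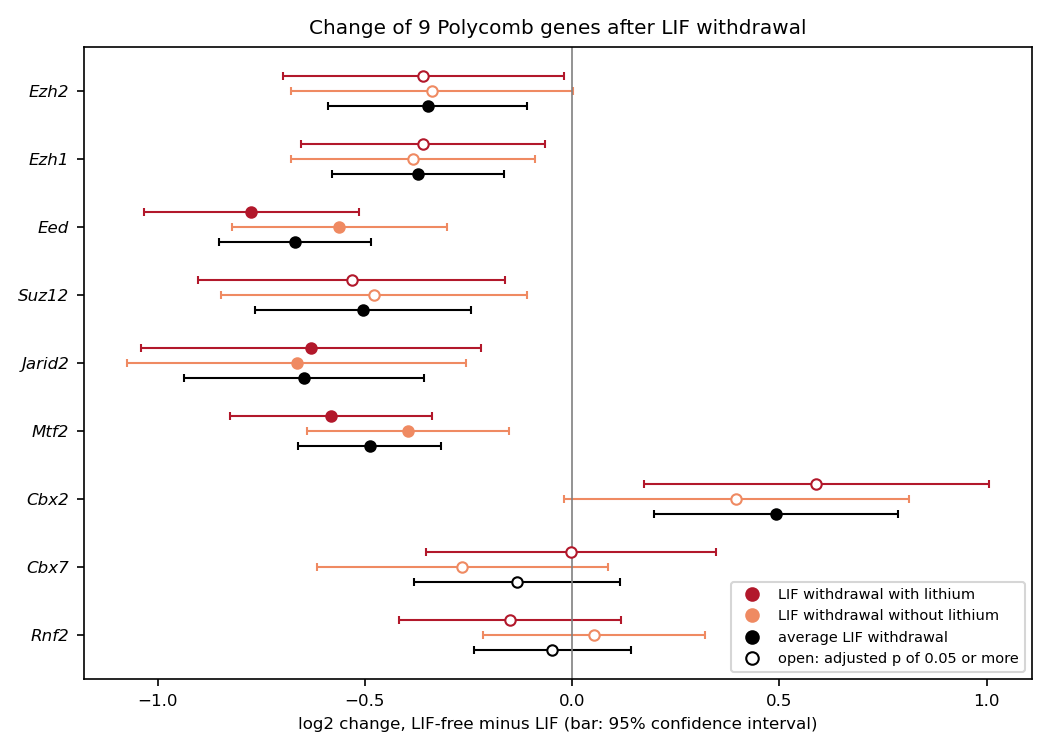
Log2 change (LIF-free minus LIF) of the 9 genes with its 95% confidence interval, with lithium, without lithium, and averaged over both; filled points have an adjusted p under 0.05. The 6 PRC2 genes lie left of 0 in all 3 comparisons and Cbx2 lies right of it.

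In each lithium state taken alone, LIF withdrawal lowered Eed, Mtf2 and Jarid2, and no other gene of the 9 was called. With lithium 12.5% of all probe sets were called, 4.93% lower and 7.53% higher. Eed changed by -0.77 (adjusted p = 0.00203), Mtf2 by -0.58 (adjusted p = 0.00596) and Jarid2 by -0.63 (adjusted p = 0.0463) on the log2 scale. The other 6 genes did not pass there, among them Suz12 (-0.53, adjusted p = 0.060), Cbx2 (0.59, adjusted p = 0.0637), Ezh1 (-0.36, adjusted p = 0.105) and Ezh2 (-0.36, adjusted p = 0.16). The Jarid2 call was lost with quantile normalization (adjusted p = 0.079), median centring (0.0824), no filter (0.072) and no intensity trend (0.101), and the Mtf2 call with the mean over probe sets (0.0805). Comparing 3 arrays with 3, complete separation in the lower direction held for 6 of the 9 genes, against 13.5% of all probe sets. These were Ezh1, Eed, Suz12, Jarid2, Mtf2 and the uncalled Rnf2, without Ezh2. In the higher direction it held for 1, Cbx2, against 19.9%.

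Without lithium 9.31% of all probe sets were called, 3.91% lower and 5.4% higher. Eed changed by -0.56 (adjusted p = 0.0123), Mtf2 by -0.40 (adjusted p = 0.0444) and Jarid2 by -0.66 (adjusted p = 0.0447). The labels state no pairing of these arrays, but residuals of arrays with the same replicate number correlated, at 0.438, 0.137 and 0.339. With the replicate number as a block, Suz12, at -0.48, was called as well (adjusted p = 0.0461, against 0.0996 without the block). Ezh1, Ezh2, Cbx2, Cbx7 and Rnf2 did not pass, with log2 changes of -0.38, -0.34, 0.40, -0.26 and 0.05. Arrays separated completely in the lower direction for 6 of the 9 genes, against 13.7% of all probe sets. These were Ezh1, Ezh2, Eed, Jarid2, Mtf2 and the uncalled Cbx7, without Suz12. In the higher direction they separated for Cbx2, against 13.8%. Several of these calls changed when 1 of the 12 arrays was left out. Without lithium, Eed lost its call without LIF-free replicate 2 (adjusted p = 0.0591), Jarid2 stayed called only without LIF replicate 3 or LIF-free plus lithium replicate 1 or 2, and Mtf2 only without LIF replicate 3 or LIF-free plus lithium replicate 1. With lithium, Eed and Mtf2 stayed called in all 12 such fits, and Jarid2 only without LIF replicate 1 or 3, LIF-free replicate 1 or LIF-free plus lithium replicate 2.

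Centring each array on its median shifted the median of all probe sets by over 0.1 in both comparisons, to -0.23 with lithium (0.11 as deposited) and to 0.13 without it (-0.07 as deposited). The offset was thus larger after this centring than before it. The array medians used, 10.5 to 19.3, lie not far above the filter signal of 7.52, so dim probe sets set this centring. Which scale is the better one was not tested. The share of called probe sets that were higher became 34.8% with lithium and 83.1% without it, against 60.4% and 58.0% on the deposited scale. Under that centring the average falls of Eed (adjusted p = 0.0146) and Jarid2 (adjusted p = 0.0401) stayed called, while Mtf2 (-0.56, adjusted p = 0.0513), Suz12 (-0.58, 0.0966), Cbx2 (0.42, 0.135), Ezh1 (-0.45, 0.167) and Ezh2 (-0.42, 0.22) did not pass. On average and with lithium, the log2 changes of the 6 PRC2 genes were larger in size under this centring than on the deposited scale. That of Cbx2 was smaller. Without lithium the reverse held, with Eed at -0.37 (-0.56 as deposited) and Cbx2 at 0.59 (0.40 as deposited). The 7 genes called on average kept their directions under this centring and under quantile normalization. The median change of the 9 genes, -0.36 with lithium and -0.38 without it, lay below the median of all probe sets in both comparisons.

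Lithium gave no call among the 9 genes. Added to LIF, the log2 changes ran from -0.19 (Cbx2) to 0.19 (Suz12), with 95% intervals reaching no further than -0.61 and 0.56, and the smallest unadjusted p was 0.227 (Rnf2). Added to LIF-free cultures, they ran from -0.13 (Eed) to 0.23 (Cbx7), with intervals reaching no further than -0.42 and 0.58 and a smallest unadjusted p of 0.173 (Cbx7). None of the 9 reached an unadjusted p under 0.05 in either comparison. By limma 0 of 27022 probe sets were called in either comparison (0%), with 749 and 347 at an unadjusted p under 0.05. The interaction, which asks whether LIF withdrawal differs with lithium, was likewise called for 0 genes and 0 probe sets (666 at an unadjusted p under 0.05), and the interaction estimates ran from -0.21 (Eed) to 0.26 (Cbx7), with intervals from -0.58 to 0.78.

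Within an array the difference between the log2 signals of a pair of genes does not depend on how that array was scaled, so 3 such differences were compared by exact two-sided permutation tests over 400 arrangements of the LIF labels, whose smallest possible p is 0.005. Cbx2 minus Cbx7 averaged -1.38 on the LIF-free plus lithium arrays, -1.15 on the LIF-free arrays, -1.97 on the LIF plus lithium arrays and -1.81 on the LIF arrays. The LIF-free values ran from -1.62 to -0.82 and the LIF values from -2.07 to -1.73, with no overlap. The gap narrowed by 0.63 without LIF (exact p = 0.005, adjusted over the 3 differences 0.015), so Cbx2 and Cbx7 changed unequally. When a gene was taken as the mean of its tested probe sets, this difference was 0.25 (exact p = 0.415). That mean brings in 1 further Cbx2 set and 2 further Cbx7 sets, all with mean signals of 11.2 or less.

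The other differences did not pass. Ezh1 minus Ezh2 ranged from -3.24 to -2.68 on LIF-free arrays and from -3.12 to -2.82 on LIF arrays, and differed by -0.02 (exact p = 0.795). Jarid2 minus Mtf2 ranged from -0.86 to -0.29 on LIF-free arrays and from -0.55 to -0.21 on LIF arrays, a difference of -0.16 (exact p = 0.175, adjusted 0.263).

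**Figure D3:**
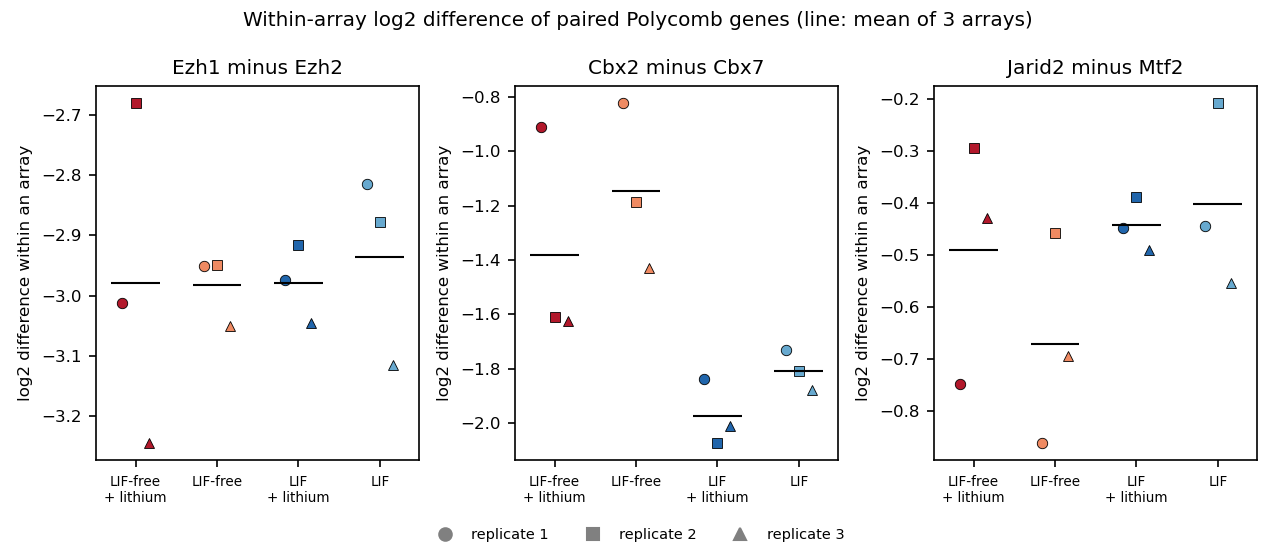
Log2 difference within each array for Ezh1 minus Ezh2, Cbx2 minus Cbx7 and Jarid2 minus Mtf2, by condition; points are arrays, with a shape for each replicate, and lines are means of 3. All LIF-free values of Cbx2 minus Cbx7 lie above all LIF values, and the other pairs overlap.

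Further probe sets checked each gene. Of the 26 tested probe sets of the 9 genes, 13 were lower without LIF, 1 was higher and 12 were not called. Over all probe sets 10.8% were lower and 13.9% higher. The 13 are repeat readings of the 6 genes that fell, so they do not count as separate genes. The 3 Jarid2 probe sets all fell, by 0.65 to 1.03 on the log2 scale. The 4 bright Mtf2 sets fell, by 0.49 to 0.67, and a dim one, at a mean signal of 27.8, was at -0.17 (adjusted p = 0.754). Suz12 fell on its 3 sets with mean signals of 457 and above, and its 3 sets at 57.9 and below were not called, at -0.63, 0.15 and 0.29. The second tested Ezh1 set, at a mean signal of 33.6, was not called (-0.44, adjusted p = 0.22), and its LIF-free and LIF arrays overlapped. Its change was 0.07 with lithium and -0.95 without it. A second Rnf2 set at 692 had a change of -0.05, close to that of the brightest. The second Cbx2 set had a mean signal of 7.67, near the filter, and its -0.17 could not check the rise. Ezh2 had a single probe set, and the other Eed set was below the filter, so for those genes no second measurement stood beside the first. When a gene was taken as the mean of its tested sets, Suz12 (-0.27, adjusted p = 0.271), Ezh1 (-0.41, adjusted p = 0.0635) and Cbx2 (0.16, adjusted p = 0.707) did not pass.

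**Figure D4:**
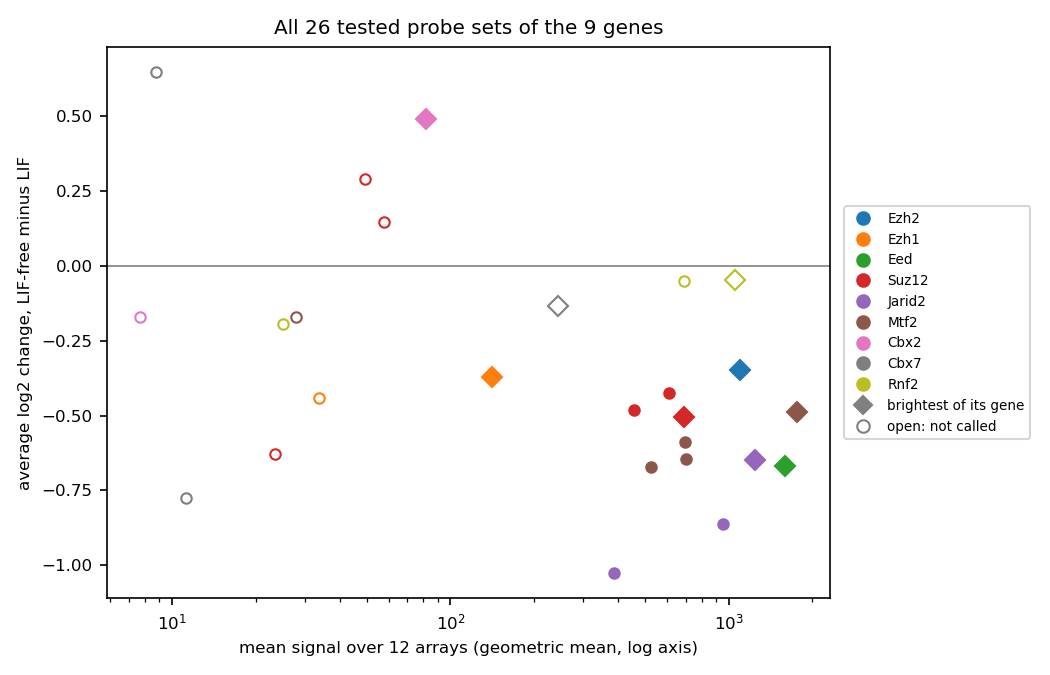
Average log2 change (LIF-free minus LIF) of all 26 tested probe sets of the 9 genes against the mean signal over 12 arrays (log axis); diamonds are the brightest set of each gene and open symbols were not called. The bright PRC2 sets lie below 0, and the sets under a signal of 60 are open and lie on both sides.

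The genes most like each Polycomb gene were sought among 12208 named genes, by the root mean square difference of log2 signals centred on each gene's mean over the 12 arrays. Eed was most like Hells (0.10), Dppa4 (0.10) and Piga (0.11), and Mtf2 most like Piga (0.068), Twistnb and Acadm. The second nearest to Jarid2 was Suz12 (0.14), the one case in which a gene of this group was among the 3 nearest of another. Suz12 itself was nearest to Birc2 (0.090), Ezh2 to Mrps15 (0.088), Ezh1 to Foxred1 (0.055), Cbx2 to Susd6 (0.11), Cbx7 to Fam185a (0.093) and Rnf2 to Ik (0.039).

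Promoter sequence, from 250 bases before to 50 after the RefSeq start, was available for 8 of the 9 genes (GRCm38.p6), with 10 starts. The following 4 are shown because they set 3 genes that fell beside Rnf2, whose change was not called. Capitals mark CpG dinucleotides, which Mtf2 and its Polycomb-like relatives bind.
Eed, chr7:89980927-89981226, minus strand: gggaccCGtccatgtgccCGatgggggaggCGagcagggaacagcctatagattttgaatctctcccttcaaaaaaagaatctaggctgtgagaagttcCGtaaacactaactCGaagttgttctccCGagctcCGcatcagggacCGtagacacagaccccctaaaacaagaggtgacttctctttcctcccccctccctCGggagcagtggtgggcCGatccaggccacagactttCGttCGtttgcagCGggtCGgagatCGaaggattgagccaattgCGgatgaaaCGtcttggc
Jarid2, upstream start, chr13:44730524-44730823, plus strand: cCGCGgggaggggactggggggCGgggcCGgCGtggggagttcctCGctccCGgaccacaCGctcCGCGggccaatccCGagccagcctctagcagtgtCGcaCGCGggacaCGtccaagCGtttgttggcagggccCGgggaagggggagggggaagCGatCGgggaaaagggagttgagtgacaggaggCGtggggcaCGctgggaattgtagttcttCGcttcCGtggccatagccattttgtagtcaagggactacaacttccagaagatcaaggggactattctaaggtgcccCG
Ezh2, chr6:47594981-47595280, minus strand: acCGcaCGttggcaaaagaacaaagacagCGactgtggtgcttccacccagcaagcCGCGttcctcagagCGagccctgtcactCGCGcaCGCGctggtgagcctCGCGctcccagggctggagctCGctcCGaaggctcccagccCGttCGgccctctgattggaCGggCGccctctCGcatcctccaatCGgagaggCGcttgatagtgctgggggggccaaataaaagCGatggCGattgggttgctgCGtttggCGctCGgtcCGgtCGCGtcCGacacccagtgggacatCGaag
Rnf2, chr1:151500942-151501241, minus strand: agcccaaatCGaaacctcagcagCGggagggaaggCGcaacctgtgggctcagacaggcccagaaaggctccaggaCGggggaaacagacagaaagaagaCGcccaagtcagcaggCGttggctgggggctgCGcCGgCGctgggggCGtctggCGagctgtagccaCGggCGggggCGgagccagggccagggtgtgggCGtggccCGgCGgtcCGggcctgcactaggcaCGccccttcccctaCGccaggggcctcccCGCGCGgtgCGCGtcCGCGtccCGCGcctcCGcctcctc

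The CpG counts of the genes that fell lay on both sides of that of Rnf2. Eed held 17 CpGs, Jarid2 24, Ezh2 31 and Rnf2 30, against a median of 7 (quartiles 3 and 20) over 32851 RefSeq promoters. The highest count was 41, for Suz12. A search on both strands for 3 motifs found TTTGGCGC, a form bound by E2F factors, in the Ezh2 promoter at positions 4 to 11 after the start. That motif or TTTCGCGC occurs in 0.813% of all promoters. The palindromic STAT motif TTCNNNGAA, found in 8.30% of all promoters, and the octamer ATGCAAAT, found in 1.74%, were in none of the 10.

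Other genes of the pathway, taken from lists chosen with earlier results known, did not move as one. Of 6 other PRC2 genes tested, Rbbp7, a histone chaperone, rose by 0.50 (adjusted p = 0.00232, and 0.0861 under median centring, on a cross-hybridising probe set) and Epop, which joins the PRC2.1 form, fell by 0.85 (adjusted p = 0.00519). The other 4, Rbbp4, Aebp2, Phf1 and Phf19, did not pass, and the list had a median log2 change of -0.06, against 0.02 over all probe sets. Thus 1 rise in 6 stands beside 13.9% higher over all probe sets, and 1 fall beside 10.8% lower.

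Of 19 other PRC1 genes tested, 7 rose, 3 fell and 9 did not pass, with a median of 0.22. Over all probe sets 13.9% were higher and 10.8% lower. Rises were largest for Bcor at 1.44, Yaf2 at 1.33, Bcorl1 at 1.24 and Phc2 at 1.13, all subunits of one form of PRC1 or another. Bcorl1 read only 2.11 to 11.3 on LIF arrays, around the filter signal, and 9.29 to 31.4 on LIF-free arrays. Its fold therefore rests on low values, and its place among these rises is uncertain. Bcor signal was 321 to 744 on LIF-free arrays and 94.5 to 282 on LIF arrays. Phc2, read like Rbbp7 on a cross-hybridising probe set, was 253 to 386 without LIF and 129 to 172 with it. Pcgf5 rose by 0.56 and Pcgf3 by 0.54, both ring-finger partners of Rnf2. Under median centring Pcgf5 (adjusted p = 0.141) and Pcgf3 (adjusted p = 0.114) did not pass, nor did they with the mean over probe sets, where Pcgf3 was at 0.24 (adjusted p = 0.351) and Pcgf5 at 0.72 (adjusted p = 0.0587). Bcorl1 and Cbx6 also did not pass under median centring. Phc1 fell by 1.11, with 442 to 828 on LIF-free arrays and 951 to 1844 on LIF arrays. Bmi1 (0.88), Bcorl1, Pcgf1 (-1.12) and Cbx6 (-0.48), which were also called, were chosen after their values were seen. Bcorl1 stayed called only without LIF replicate 1 or 3 or LIF-free plus lithium replicate 1 or 3. Cbx6 lost its call without LIF replicate 2, LIF plus lithium replicate 2 or 3, LIF-free replicate 1, or LIF-free plus lithium replicate 1 or 2.

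A further list held 15 factors taken as opposing Polycomb. They are MLL (Kmt2) enzymes, H3 demethylases, H2A deubiquitinases or cofactors of such enzymes, among them Asxl1 and Asxl2. Of the 15, 2 rose, 5 fell and 8 did not pass, with a median of -0.14 (all probe sets: 13.9% higher, 10.8% lower). Ash2l (-0.76), Dpy30 (-0.75) and Wdr5 (-0.87), shared cofactors of H3 methyltransferases that mark active genes, fell. Dpy30 was 1117 to 1459.7 on LIF-free arrays and 1891 to 2368 on LIF arrays. Kdm6b, which removes the Polycomb methyl mark, rose by 0.59 (adjusted p = 0.00475, and 0.0728 under median centring). Usp16 (0.56), Rbbp5 (-0.50) and Asxl1 (-0.32), the other called genes, were chosen after their values were seen. None of these 3 passed under median centring, Usp16 and Asxl1 did not pass with the mean over probe sets (0.18 and -0.22), and Asxl1 stayed called only without LIF replicate 2 or LIF-free plus lithium replicate 3.

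Textbook Polycomb targets, developmental genes that the complexes generally silence in embryonic stem cells, were also counted. Not all of them read low with LIF: on LIF arrays Gbx2 was at 90.3 to 167 and Otx2 at 143 to 193. Of 47 listed, 43 were on the array with 1 symbol and 31 passed the filter, which keeps dim genes that are high in some condition, so the counts support nothing about the list as a whole. Of the 31, 19 rose, 2 fell and 10 did not pass (background 13.9% higher, 10.8% lower), and their median log2 change was 1.36. Msx2, a homeobox gene of early development, was 187 to 479 on LIF-free arrays and 33.0 to 121 on LIF arrays, a rise of 2.44. Lhx1 (4.47), Gata3 (2.12), Irx3 (1.74), Foxa2 (1.46) and Tbx20 (1.36) rose as well, and Gbx2 (-2.59) and Neurod1 (-2.20) fell. Several start near background: on LIF arrays Lhx1 read 0.375 to 21.3, so its fold rests on low values. Neurod1 read 3.05 to 11.1 on LIF-free arrays, around the filter signal of 7.52, and its change was -1.04 with a pseudocount of 16.

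**Figure D5:**
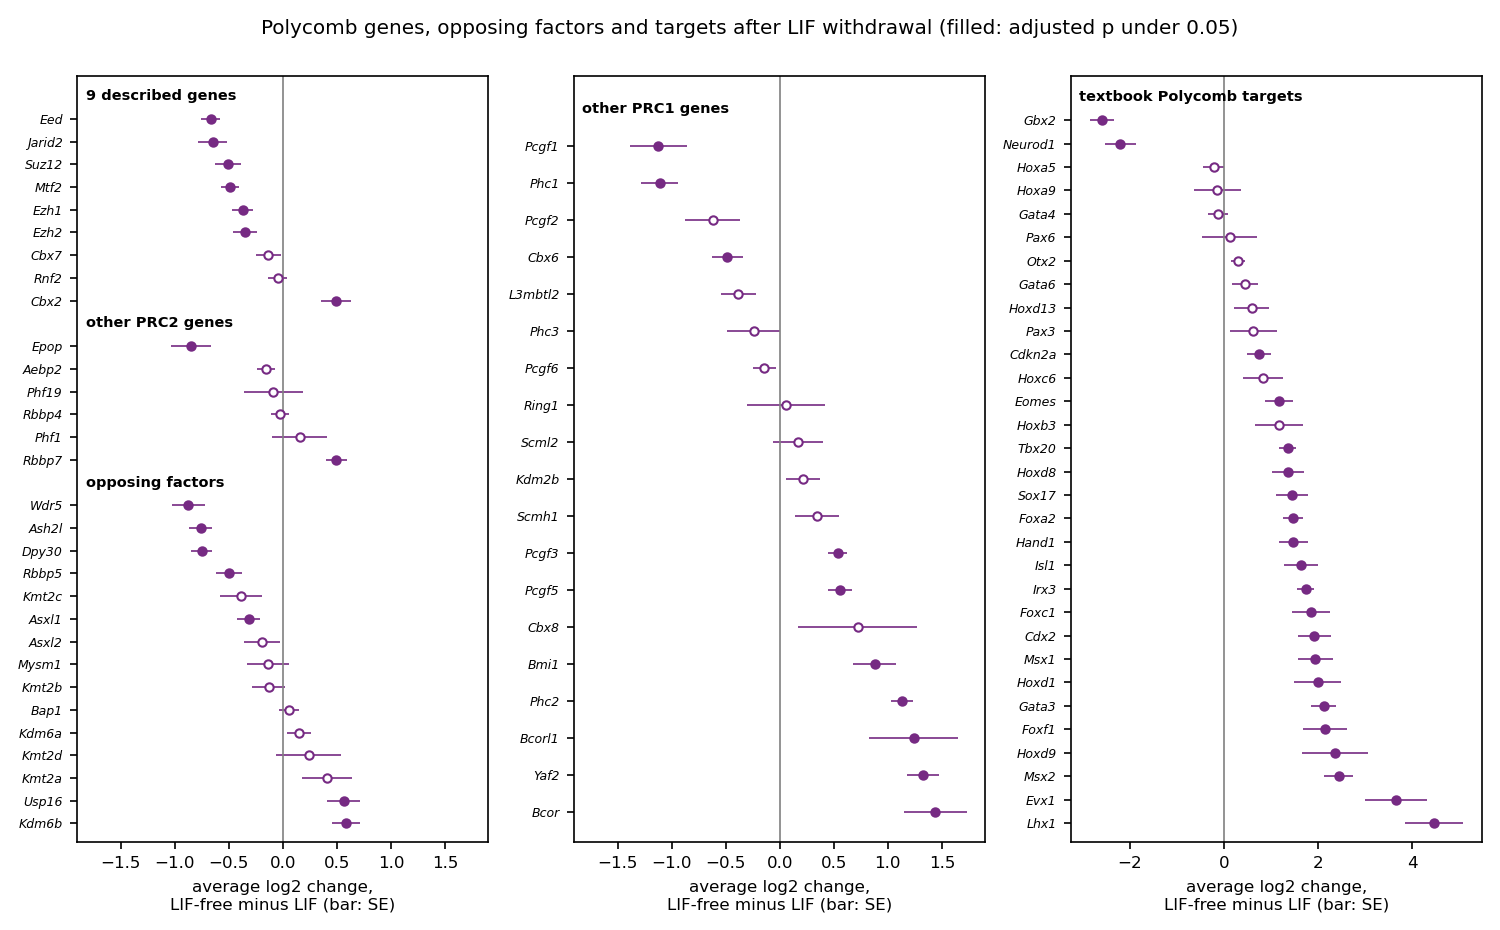
Average log2 change (LIF-free minus LIF, bar: SE) of the 9 genes, other PRC2 genes, opposing factors, other PRC1 genes and Polycomb targets; filled points have an adjusted p under 0.05. The PRC2 genes among the 9 lie to the left of 0, other PRC1 genes lie on both sides, and most targets lie to the right.

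Cell state markers moved over the same arrays, and their part in the Polycomb results was not tested. Pluripotent cell markers fell in 9 of 10 cases, with a summed signal of 9824 to 15067 on LIF-free arrays and 19695 to 31176 on LIF arrays. Such sums rest mainly on the brightest genes. Dppa5a, the marker not called, averaged 6537 on LIF-free arrays and 7702 on LIF arrays. Differentiated lineage markers rose in 8 of 16 and fell in 1, with sums of 11351 to 14024 on LIF-free arrays and 3343 to 6010.1 on LIF arrays, led by the keratins Krt8 and Krt18, while Afp was below the filter. Krt8 and Krt18 averaged 5313 and 5973 on LIF-free arrays, so these sums are mostly theirs. The number of lineage markers that rose was 5 with the filter at the 60th percentile. On LIF arrays Ttr averaged 7.90, Mixl1 8.37 and Kdr 9.27, near the filter signal, so their rises rest on low values. Those of Krt8, Krt18 and Krt7 do not, with lowest readings there of 1204, 1523 and 143. Of 17 proliferation markers 3 fell and 0 rose, with sums of 25993 to 28691 on LIF-free arrays and 28563 to 31845 on LIF arrays. That 3 became 1 without LIF replicate 2, LIF plus lithium replicate 2 or 3, or LIF-free plus lithium replicate 1, and 5 without LIF replicate 1, and 3 of 17 stands beside 10.8% of all probe sets. Fibroblast and feeder markers rose in 5 of 10 and fell in 1 (a fall called only without LIF replicate 1, LIF plus lithium replicate 2, LIF-free replicate 2 or LIF-free plus lithium replicate 3, or with all arrays), with sums of 454 to 1054 on LIF-free arrays and 283 to 621 on LIF arrays, and their markers Dcn and Lum were below the filter. Over all probe sets 13.9% were higher. With the filter at the 60th percentile none of the fibroblast markers was called. On LIF arrays Col1a1 averaged 5.94 and Twist2 7.43, below the filter signal of 7.52, so both passed it through the LIF-free arrays, and the count supports nothing about the list.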

How the data were processed

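Each deposited value is a MAS5 signal intensity on a linear scale, which the authors computed with MAS5, per the submitters' processing notes; no version is given in the sources used here. The table held 45101 probe sets, of which 64 controls were left out. Here values under 1 were raised to 1 before log2, and probe sets with a mean log2 above the 40th percentile over 12 arrays (signal 7.52) were kept, 27022 in all. Symbols came from the platform annotation (34945 probe sets with 1 symbol, 932 with several, 9160 with none). The fit used limma 3.58.1 (R 4.3.3; lmFit, then eBayes with trend) on the 12 arrays together, with a mean for each condition and two-sided tests, with Benjamini-Hochberg adjustment over 27022 and a threshold of 0.05, in 6 comparisons. The number of arrays, 3 a condition, limits the precision.

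The members and lists were chosen with earlier results of these data known. All members were named; from the other Polycomb lists up to 12 genes with the smallest p in average LIF withdrawal, from targets up to 8 and from marker lists up to 3. The labels state no pairing, so their replicate numbers were checked by correlating residuals from condition means. Conditions were taken as paired when the lowest correlation was at least 0.1. Paired were LIF-free and LIF (0.438, 0.137 and 0.339), and LIF plus lithium and LIF (0.499, 0.139 and 0.321). So were LIF-free plus lithium and LIF-free (0.462, 0.111 and 0.300), and LIF-free and LIF plus lithium (0.542, 0.188 and 0.365). Not paired were LIF-free plus lithium and LIF plus lithium (0.451, 0.0972 and 0.379), and LIF-free plus lithium and LIF (0.385, 0.0316 and 0.181). Alternatives were quantile normalization, median centring, a pseudocount of 16, no filter, the 60th percentile, the replicate block, no trend, array weights, a mean over probe sets, only the compared arrays, and leaving out each of 12 arrays. Median centring with the block was added after seeing the data. Promoters are from RefSeq (GRCm38.p6). Plots used Python 3.11.15 and matplotlib 3.10.9.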

Additional observations from a re-analysis of the deposited data

How the results depend on the processing

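Averaged over lithium, 7 genes were called, and 2 (Eed and Jarid2) under median centring, 4 when a gene was the mean of its probe sets, and 5 to 7 without single arrays; with the replicate block the number was 7. With lithium 3 were called, and 5 with the filter at the 60th percentile, 6 with the replicate block, 6 with array weights, 6 with median centring and the block, and 2 to 4 without single arrays. Without lithium 3 were called, and 0 with median centring, 1 with no filter, 1 with no intensity trend, 6 with array weights, 0 with median centring and the block, 0 using only the compared arrays, and 0 (without LIF-free replicate 2) to 4 without single arrays. The lithium and interaction counts were 0 in every alternative run. Ezh1 minus Ezh2 turned to 0.0094 with a pseudocount of 16, and ran from -0.098 to 0.043 without single arrays; Cbx2 minus Cbx7 was 0.25 with a mean over probe sets and 0.51 to 0.70 without single arrays. Single genes that turned were not called: Cbx2 with lithium was -0.12 as a mean over probe sets; Cbx7 with lithium was 0.078 with array weights and -0.15 to 0.11 without single arrays; Rnf2 without lithium was -0.11 with array weights, -0.082 as a mean over probe sets and -0.079 (without LIF replicate 3) to 0.15 without single arrays; Rnf2 on average was 0.0018 without LIF replicate 2. The causes were not tested, apart from the dim probe sets that a mean includes. Averages of Ezh2 were also not called with no filter or no trend. With lithium the block added Suz12, Cbx2 and Ezh2 (adjusted p 0.0259, 0.0257 and 0.0482), in a pair of conditions that the check of replicate numbers did not accept as paired. Over all alternatives, single arrays left out included, proliferation markers that fell ran from 1 to 8, other PRC1 genes that rose from 4 (median centring) to 9 and that fell from 2 to 5 (5 with the block, with or without centring), opposing factors that rose from 0 (median centring) to 3 and that fell from 3 (median centring) to 6, and other PRC2 genes that rose from 0 (median centring) to 1.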

Other observations

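Limits of these values are that each condition has 3 arrays from one cell line, that MAS5 signal of a gene rests on its probes and cannot be compared between genes, and that RNA levels say nothing of protein, complex assembly or histone marks.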
